A study of Mus musculus with 12 samples.

Results

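The comparison described here sets aortic smooth muscle cells labelled as knockout for the nuclear receptor gene Nr4a3 against wild-type cells on day 1. Its members are all genes of the day-1 count table, and the 3 knockout libraries (KO) were compared with the 3 wild-type control libraries (WT). The table held 28451 genes, out of 32532 in the tables of either day, and 15368 of them had enough reads to be tested. The series has 12 libraries in 4 groups of 3, KO and WT at day 1 and at day 14, and the 6 day-1 libraries carry the results below. By their labels all come from primary vascular smooth muscle cells of mouse aorta, with neither sex, age, strain nor the deleted part of the gene given. The stated culture medium of every group held 10 mM beta-glycerophosphate, a phosphate donor used to make such cultures mineralise, but by the treatment label only KO received beta-GP, and WT is marked none. Genotype and that difference in labels cannot be told apart. The labels do not state whether the replicates came from different animals or cultures. The p-values therefore reflect the spread among these libraries alone, and that spread may be technical.

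NR4A3 (also called NOR1) is an orphan nuclear receptor, a transcription factor that needs no known ligand and is switched on quickly by growth factors and stress. With its relatives NR4A1 and NR4A2 it binds as a monomer to a short DNA element, the NBRE. In vascular smooth muscle it is known for its induction in injured and atherosclerotic arteries and for its part in proliferation. Cultured smooth muscle cells are known to lose contractile proteins and to turn to a synthetic state, in which they divide, migrate and make matrix.

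Library totals were 17143281 to 20091307 counts in KO and 24929624 to 30105118 in WT, so WT was read more deeply in every pair of libraries. Counts are given as CPM, the usual rate of counts relative to the library total, after scaling by TMM (trimmed mean of M values, a scaling that sets the bulk of genes equal). Replicates differed by more than sampling noise, with a chi-square per gene of 7.57 to 19.55 between KO libraries (the highest between replicates 2 and 3) and 2.91 to 3.58 between WT libraries. The KO libraries of day 1 were closest, among the other groups, to WT at day 14, with a median correlation of log2 CPM of 0.974 (0.962 to 0.9815 over 9 pairs), against 0.9323 for WT at day 1 and 0.9211 for KO at day 14. WT at day 1 was in turn closest to KO at day 14, at 0.9365, against 0.9323 for KO at day 1 and 0.9218 for WT at day 14. An exchange of the genotype labels at day 1 would turn the sign of every difference below. Whether labels were exchanged at either day was not tested, and every result is given for the libraries as labelled. Nr4a3 had 34, 36 and 48 counts in KO and 110, 121 and 97 in WT, so reads of the gene remained and stood at 2.06 ± 0.233 CPM for KO against 4.2 ± 0.385 for WT (mean and SD, n = 3 each, edgeR adjusted p = 8.55e-04).

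The cell type label was checked against 12 smooth muscle markers. Acta2, the smooth muscle actin, was well read, at 657, 634 and 700.0 CPM in the KO libraries against 252, 279.5 and 288 in the WT libraries. Transgelin (Tagln), among the most abundant transcripts of contractile smooth muscle, had 2, 9 and 0 counts in KO and 0, 1 and 1 in WT. Myh11, the smooth muscle myosin heavy chain, had 27 counts over the KO libraries and 7 over the WT libraries. Calponin (Cnn1) had 41 and 20, and the regulator myocardin (Myocd) 26 and 0. These defining markers were at or near 0 in all 6 libraries. The intermediate filament desmin (Des) was read at a higher level, and Des, which skeletal muscle also makes, did not pass the test at 609.7, 581 and 690.4 CPM in the KO libraries against 640.0, 629 and 654 in the WT libraries. Myl9, a regulatory myosin light chain, stood at 39.3, 32.8 and 44 CPM in the KO libraries against 1.87, 2.34 and 2.19 in the WT libraries. Actg2, another smooth muscle actin, and the actin nucleator Lmod1 had log2 fold changes of 3.68 and 3.95, and Acta2 one of 1.28, all higher in KO without overlap. Smoothelin (Smtn), which binds actin filaments, was lower in KO at 65.9, 64 and 70.6 CPM in the KO libraries against 118, 129.6 and 126 in the WT libraries. Tropomyosin 2 (Tpm2), also of the actin filament, was lower as well, at a log2 fold change of -0.77. Of the 9 tested markers 6 were higher and 2 lower, and the 12 summed to 1500 to 1710 CPM in KO and 1230 to 1290 CPM in WT, mostly from Acta2 and Des.

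Genes that specify skeletal muscle were read as well. Myod1, the master regulator of the skeletal muscle lineage, stood at 29.6, 30 and 40.1 CPM in the KO libraries against 3.49, 3.08 and 3.29 in the WT libraries (log2 fold change 3.34 ± 0.15 SE, edgeR adjusted p = 7.12e-10). Its relative Myf5 was at 93, 110.2 and 91 CPM in the KO libraries against 71.9, 78.4 and 78.2 in the WT libraries, high in both genotypes. Titin (Ttn), the spring protein of the sarcomere, was 3.66 log2 units higher in KO, and the muscle acetylcholine receptor subunits Chrna1 and Chrnd were 1.42 and 1.64 higher. Tnnt2, the cardiac troponin T, was lower at 19, 17.1 and 14.2 CPM in the KO libraries against 29.7, 28.9 and 26.7 in the WT libraries. Of the 6 tested genes of the skeletal and cardiac list 3 were higher and 1 lower. Myogenin (Myog), which drives terminal differentiation, had 27 counts over KO and 7 over WT, and the creatine kinase Ckm had 0 and 1. The list's summed level was 822 to 898 CPM in KO and 745 to 769 CPM in WT, most of it from Des, which both lists hold. Tagln, Myh11, Cnn1 and Myocd at or near 0 go against the label in both genotypes, while Acta2 does not, and the cells are called here by their label only.

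**Figure D1:**
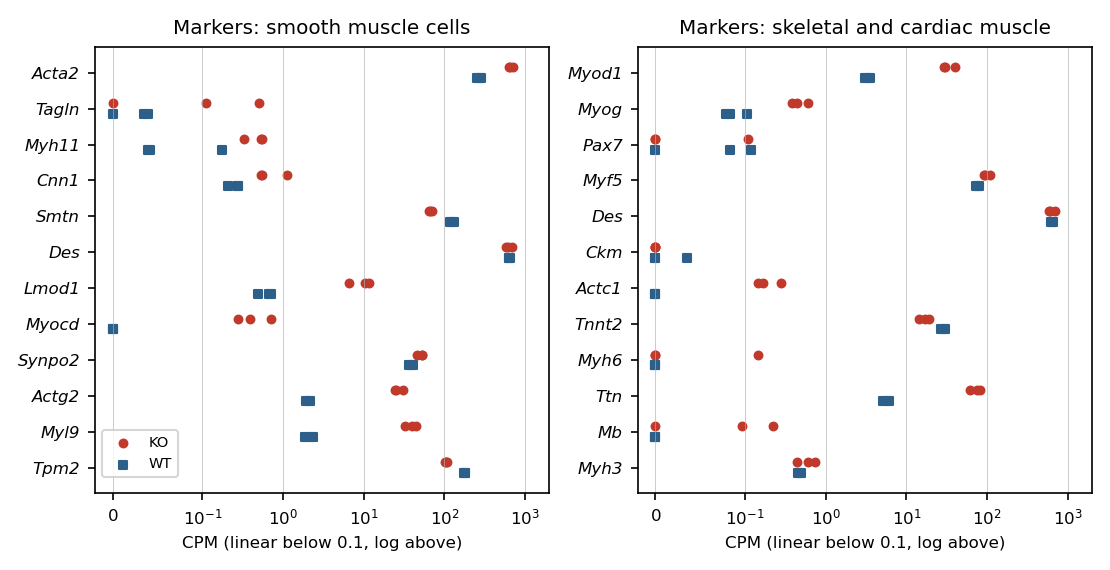
CPM of 12 smooth muscle markers (left) and 12 skeletal and cardiac muscle markers (right) in each library at day 1 (horizontal axis, linear below 0.1 and logarithmic above), with circles for the 3 KO and squares for the 3 WT libraries. Tagln, Myh11, Cnn1 and Myocd lie at or near 0 in all libraries, while Myf5 and Des are high in both groups and Myod1 is higher in the 3 KO libraries.

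Markers of other cells differed between the groups too. All 9 tested fibroblast markers of 12 were lower in KO, with a summed level of 856 to 964 CPM in KO and 1750 to 1800 CPM in WT. Pericyte markers summed to 133 to 139 CPM in KO and 257 to 275 CPM in WT, a difference mostly from Notch3 (log2 fold change -1.42). Of the 6 tested pericyte markers 3 were higher and 3 lower, the 3 higher ones (Abcc9, Kcnj8 and Mcam) at low levels, and the list's median was 0.85. Adipocyte markers summed to 366 to 455 CPM in KO and 128 to 142 CPM in WT, mostly from the lipase Lpl. Lpl stood at 359.5 ± 40.9 CPM for KO against 104 ± 7.27 for WT (mean and SD, n = 3 each, edgeR adjusted p = 1.31e-09). Endothelial markers summed to 5.13 to 6.79 CPM in KO and 13.7 to 16.1 CPM in WT, most of it from the endothelial cadherin Cdh5, while Tie1 and Robo4 had at most 3 counts in all. The 2 tested endothelial markers differed in sign. Cdh5 had a log2 fold change of -1.92, and Vwf, with 51 counts over KO and 30 over WT, one of 1.22. Of 12 lymphocyte markers none reached the level for a test. In the macrophage list Mrc1, Fcer1g, C1qa and C1qb had at most 3 counts over all 6 libraries. Cd68, a lysosomal protein of the same list, was higher at 48.3 ± 6.64 CPM for KO against 21.7 ± 3.12 for WT (mean and SD, n = 3 each, edgeR adjusted p = 2.39e-06). Cd14, a receptor for bacterial lipopolysaccharide, was lower at 17.3, 16.4 and 15.7 CPM in the KO libraries against 40.1, 38.8 and 42.6 in the WT libraries. The macrophage list summed to 60.5 to 72.8 CPM in KO and 59.7 to 65.0 CPM in WT. In these bulk samples fewer cells of a type and less RNA per cell cannot be told apart. The part of such differences in the results below was not tested.

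Most genes differed between the genotypes. By edgeR's quasi-likelihood test with Benjamini-Hochberg adjustment, 9341 of 15368 tested genes (60.8%) passed an adjusted p of 0.05, 4705 higher in KO (30.6%) and 4636 lower (30.2%). A change of at least 2-fold was found for 3007 genes (19.6%), 1551 higher (10.1%) and 1456 lower (9.47%). The median log2 fold change over all tested genes was 0.01 and the median size 0.43. Scaling by library size alone moved that median to 0.14 and the split to 5917 higher and 3676 lower. Genes called with groups that do not overlap made up 29.6% (higher) and 29.7% (lower) of those tested.

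The balance of directions differed with the level of the gene. Among genes below 0 on the log2 CPM scale, 413 were higher in KO and 252 lower, of 1714 tested. Among the 668 genes at 8 log2 CPM and above, 178 were higher and 354 lower. The largest differences were mostly rises, with 78 genes higher and 20 lower by 6 log2 units or more. Sizes like these depend on how low a level could be read in the lower group. A floor of 3 counts over a group was 0.0383 CPM in WT and 0.0528 CPM in KO. The part of depth in this split was not tested. The share past 2-fold was 38.7% in the lowest class, 8.12% from 6 to 8 log2 CPM and 13.8% in the highest class. In the lowest classes a small difference was hard to detect at this depth, since the median standard error was 0.49 below 0 and 0.06 from 6 log2 CPM up. The filter asked for enough reads in 3 libraries only, so a gene of low mean level could enter through the group where it was higher. The shares of the lowest classes depend on that filter as well as on depth.

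**Figure D2:**
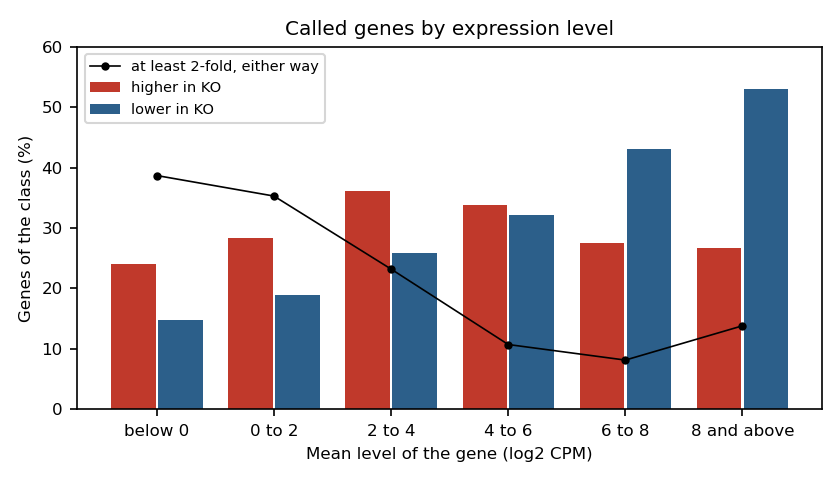
Share of tested genes that passed the test at day 1 (vertical axis, %), by the mean level of the gene (horizontal axis, log2 CPM), with bars for genes higher and lower in KO and a line for those changed by at least 2-fold in either direction. Called rises outnumber called falls in the classes below 4 log2 CPM, and falls outnumber rises from 6 log2 CPM up.

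The largest falls in CPM began with fibronectin. Fibronectin (Fn1), a matrix glycoprotein, stood at 3099, 3131 and 3094 CPM in the KO libraries against 8027, 8490.0 and 8205 in the WT libraries. The collagen Col3a1 stood at 608, 583 and 535 CPM in the KO libraries against 4335, 4193 and 4332 in the WT libraries. Caveolin 1 (Cav1), which forms membrane caveolae, and thrombospondin 1 (Thbs1), an adhesive matrix protein, had log2 fold changes of -1.94 and -2.41. In every one of these genes the highest KO library lay below the lowest WT library. The 15 genes with the largest falls in CPM, which also include vimentin (Vim), the desaturases Scd1 and Scd2, the pyruvate kinase Pkm and the nuclear noncoding RNA Neat1, took 2.33% to 2.36% of all counts in KO and 5.28% to 5.31% in WT. The mitochondrially encoded mt-Cytb, mt-Nd1 and mt-Nd4 are among them as well. Of 16 tested mitochondrially encoded genes 6 were lower and 3 higher, with a median log2 fold change of 0.05. The fibroblast markers given above moved in the same direction as the 15 largest falls, and the part of these markers was not tested.

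The largest rises in CPM took 3.58% to 3.60% of counts in KO and 1.63% to 1.64% in WT. The first 5 were Yap1, a coactivator of growth genes, and Dcun1d5, Tmem123, Dync2h1 and Birc2. Yap1 and Birc2 are neighbours on chromosome 9, and neighbouring genes are not independent. The first 5 are therefore not to be counted as 5 separate changes. Whether any of the 5 rose together as neighbours was not tested. The set also includes genes of protein synthesis and folding: the elongation factor Eef2 at 0.29, nucleolin (Ncl), which acts in ribosome assembly, at 0.92 on the log2 scale, the poly(A)-binding protein Pabpc1 at 0.49, and the chaperones Hspa5 and Hsp90aa1 at 0.84 and 1.03. The related Hsp90ab1 was among the largest falls, at -0.55, so the Hsp90 pair moved in opposite directions. Of 64 tested translation initiation and elongation factors 28 were higher and 12 lower (7 lower with library size alone), with a median log2 fold change of 0.18 against 0.01 over all genes. Among them Eif3f, a subunit of the initiation complex, was at 252, 256 and 271 CPM in the KO libraries against 135, 144 and 145 in the WT libraries. Of 79 heat shock proteins and chaperones 33 were higher and 19 lower, with the largest rises in Hsph1, Hspb8 and the mitochondrial Hspe1 (1.28, 1.18 and 1.10). Small nucleolar RNA host genes, noncoding transcripts spliced around snoRNAs, were higher in 10 of 14 and lower in 1, with a median of 0.71.

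Enzymes that charge tRNAs and supply amino acids differed more often in the other direction. Of 19 cytosolic aminoacyl-tRNA synthetases 12 were lower and 3 higher, with the cysteinyl and methionyl enzymes Cars and Mars at -1.27 and -0.97. In serine and one-carbon metabolism 12 of 22 were lower, 7 of them by at least 2-fold, and 6 higher. Aldh1l2, the mitochondrial enzyme that oxidises formyl-tetrahydrofolate, stood at 192, 195 and 222 CPM in the KO libraries against 711, 709 and 695 in the WT libraries. Cth, which makes cysteine, was at 13.5, 17.6 and 15.1 CPM in the KO libraries against 69.4, 75.3 and 70.9 in the WT libraries. Both were lower in each KO library than in each WT library. Amino acid transporters were lower in 19 of 32 and higher in 6. The glutamine carrier Slc1a5 was -1.36 and the glycine carrier Slc6a9 -1.54 on the log2 scale, while the neutral amino acid carriers Slc6a17 and Slc6a15 were 3.95 and 2.27 higher. The citrate carrier Slc25a1 (-2.40) and the cytosolic isocitrate dehydrogenase Idh1 (-1.89) were among the lower genes of the mitochondrial carriers and of the tricarboxylic acid cycle list. Of the 39 tested carriers 12 were lower and 10 higher, with a median of 0.02. In the cycle list 10 of 22 were lower and 4 higher, with a median of -0.08. Of 19 fatty acid oxidation genes 10 were lower and 3 higher, or 6 and 5 when libraries were scaled by size alone.

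Lists of function leaned to lower more often than to higher, which bears on how single lists read. Of the 76 lists of function with at least 10 tested members, 49 had more members lower in KO, 21 more members higher and 6 as many. Between 46.9% and 92.6% of a list's tested members passed the test, with a median of 72.6%, above the 60.8% of all genes. The lists shown were picked from these after their values were seen, and genes of 1 list are not independent. Every count of list members is to be read beside the 30.6% of all tested genes that were higher and the 30.2% that were lower. For changes of at least 2-fold these shares were 10.1% and 9.47%.

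**Figure D3:**
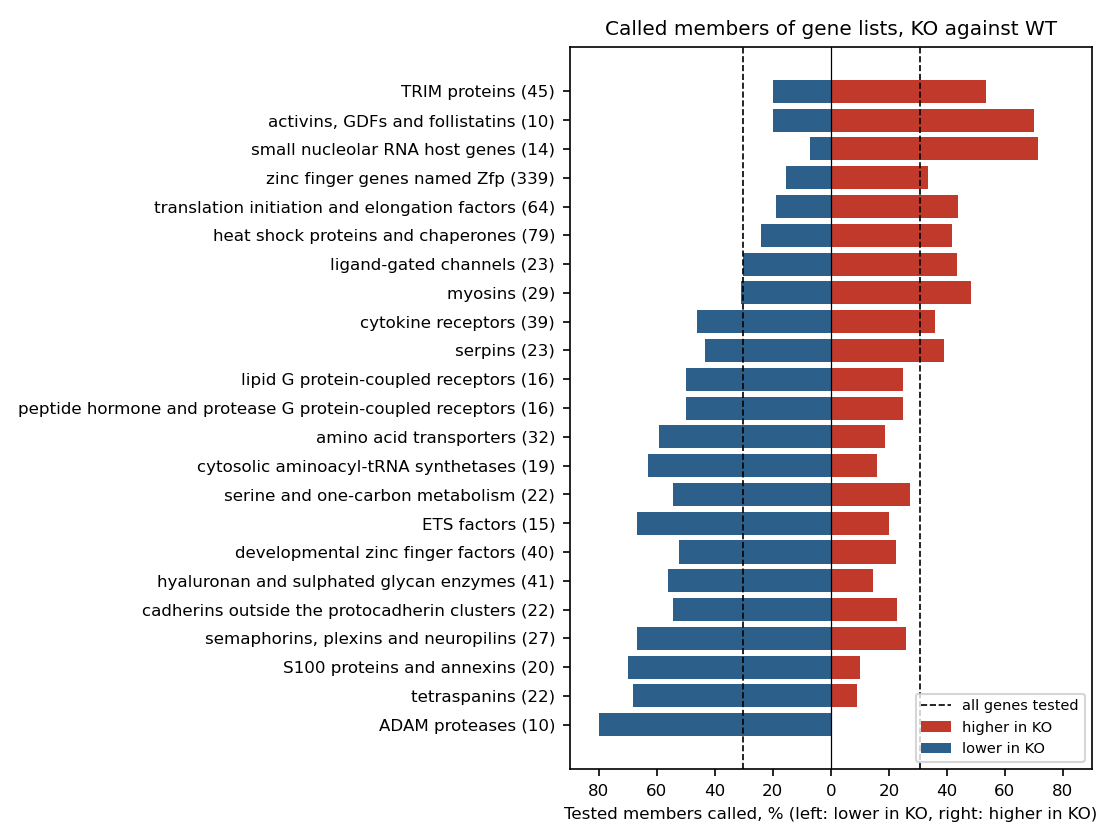
Share of the tested members of 23 gene lists (number tested in brackets) that were called lower (left) or higher (right) in KO at day 1, in %, with dashed lines at the shares over all tested genes, 30.2% lower and 30.6% higher. ADAM proteases had no member called higher, and snoRNA host genes 1 called lower.

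Several transcription factor families held members that differed in opposite directions. Of 26 tested forkhead factors 10 were higher in KO and 8 lower (5 with library size alone). In all 69.2% of them passed the test, beside 60.8% of all genes. Foxf1, which patterns the mesenchyme of gut and lung vessels, stood at 37, 39.7 and 34.3 CPM in the KO libraries against 2.95, 3.08 and 2.9 in the WT libraries (log2 fold change 3.63 ± 0.11 SE, edgeR adjusted p = 3.27e-11). Foxo4, which acts downstream of insulin signalling, was lower by a small amount at -0.40. Among 6 tested SOX factors Sox4, an embryonic and tumour-associated factor, stood at 156, 170.2 and 139 CPM in the KO libraries against 39.2, 43.6 and 38.2 in the WT libraries. Sox12 was 2.04 log2 units higher. The homeobox factor Pax8, a regulator of thyroid and kidney, was read at 10.6, 7.74 and 9.2 CPM in the KO libraries against 0.539, 0.909 and 0.509 in the WT libraries, and the chromatin organiser Satb1 was 2.48 higher. In all of these but Foxo4 the 3 KO libraries lay above the 3 WT libraries, and for Foxo4 they lay below.

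The aryl hydrocarbon receptor Ahr, a ligand-activated factor that induces xenobiotic enzymes, was lower in KO at 33.7, 34.8 and 35.6 CPM in the KO libraries against 159, 165 and 158 in the WT libraries (log2 fold change -2.21 ± 0.06 SE, edgeR adjusted p = 1.41e-11). The clock activator Arntl was -1.10 on the log2 scale. Clock repressor Bhlhe40 was -1.20, whereas Nr1d1 and Per1 were 0.43 and 0.38 higher. Of 21 clock genes 4 were higher and 8 lower, or 5 lower without WT replicate 2 and with library size alone. The share of clock genes that passed the test was 57.1%, near the 60.8% of all genes. Mef2c, a factor of muscle and vessel development, was at 5.79, 4.15 and 5.33 CPM in the KO libraries against 20.6, 21.5 and 19.3 in the WT libraries. Its MADS-box relative Srf, which drives actin and contractile genes, was 0.55 higher. Bcl6, a repressor, was at 24.3, 22.6 and 28.7 CPM in the KO libraries against 74.1, 69.8 and 75.3 in the WT libraries.

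Several families had more members lower than higher. Of 15 ETS factors 10 were lower and 3 higher, among them the 3 members of the PEA3 subfamily, which are induced by FGF signalling: Etv1 (-1.80), Etv5 (-1.59) and Etv4 (-1.02). Of 19 KLF and SP factors 8 were lower and 1, Klf5, a factor of activated smooth muscle, was higher (0.76). Klf4, which represses contractile genes, was -0.64. Without KO replicate 2 or KO replicate 3, 3 or 2 KLF and SP factors were higher, and 4 with library size alone. Of 40 developmental zinc finger factors 21 were lower and 9 higher, with Glis2 and Hivep3 at -1.15 and -1.20. Among genes named Zfp, many of them KRAB repressors, 113 of 339 were higher and 53 lower, or 35 lower with library size alone, beside 30.6% and 30.2% of all genes. Their share called higher was thus near that of all genes, and fewer were called lower. In all 49.0% of the Zfp genes passed the test, beside 60.8% of all genes. Zfp704 had the largest rise among the Zfp genes called without overlap at a mean of 2 log2 CPM or more. It stood at 81, 77.8 and 69.3 CPM in the KO libraries against 9.88, 9.93 and 11 in the WT libraries. Among bZIP factors Cebpb and Maf were 1.51 and 1.30 higher and Cebpd was -1.25, so the C/EBP relatives differed in sign.

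Receptor tyrosine kinases showed no common direction, with 10 of 26 higher and 10 lower. Fgfr2, a receptor for fibroblast growth factors, stood at 21.1, 21 and 17.3 CPM in the KO libraries against 0.664, 0.734 and 0.979 in the WT libraries (log2 fold change 4.63 ± 0.18 SE, edgeR adjusted p = 2.57e-10). Mertk, which clears dying cells, was at 6.79, 4.86 and 6.97 CPM in the KO libraries against 27.4, 30.7 and 30.7 in the WT libraries. Musk, the kinase that assembles the neuromuscular junction, was lower at -1.91, while its co-receptor Lrp4 was higher at 1.23. The collagen receptor Ddr2 was at 324, 321 and 339 CPM in the KO libraries against 589, 586 and 579 in the WT libraries. Each of these genes had groups that did not overlap.

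G protein-coupled receptors gave large folds in both directions. Of 16 receptors for lipids 8 were lower, 6 of them by at least 2-fold, and 4 higher. S1pr3, a receptor for sphingosine 1-phosphate that contracts vessels, stood at 0.221, 0.387 and 0.533 CPM in the KO libraries against 15.6, 12.4 and 13.2 in the WT libraries (log2 fold change -5.13 ± 0.24 SE, edgeR adjusted p = 1.30e-09). The lysophosphatidic acid receptor Lpar4 was at 25.8, 18.5 and 25.7 CPM in the KO libraries against 3.36, 3.53 and 3.48 in the WT libraries. Prostaglandin receptors split, with Ptger2 2.36 higher and Ptgfr at -2.26. Of 16 peptide hormone and protease receptors 8 were lower and 4 higher, or 5 and 2 when at least 1 CPM in 3 libraries was required. The count of higher members was also 2 without KO replicate 1, WT replicate 1 or WT replicate 3.

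The receptor for adrenomedullin and CGRP, vasodilator peptides, is built from Calcrl and an accessory RAMP protein. Calcrl stood at 4.58, 2.49 and 2.91 CPM in the KO libraries against 43.5, 41 and 45.2 in the WT libraries. Ramp3 stood at 37.5, 29.9 and 63.5 CPM in the KO libraries against 3.65, 3.29 and 3.33 in the WT libraries. These partners therefore differed in opposite directions, Calcrl (log2 fold change -3.70 ± 0.16 SE, edgeR adjusted p = 5.00e-10) and Ramp3 (log2 fold change 3.68 ± 0.25 SE, edgeR adjusted p = 4.81e-08). Adhesion receptors split evenly, 6 higher and 6 lower of 13, with Adgrg2 at 0.221, 0.497 and 0.436 CPM in the KO libraries against 13.2, 14.5 and 13.5 in the WT libraries and Adgrg7 at 65.7, 63.5 and 76.8 CPM in the KO libraries against 5.6, 6.61 and 7.55 in the WT libraries. The orphan receptors Mrgprf (-3.57) and Gpr149 (-3.82) were lower, and Gpr155 (3.16) and Lgr6, an R-spondin receptor (2.51), higher. Serotonin receptor Htr1b was at -3.45 and the adenosine receptor Adora2b at -1.45. The decoy chemokine receptor Ackr3 was at 19.3, 15.7 and 17.8 CPM in the KO libraries against 59.8, 57.1 and 58.8 in the WT libraries, and its relative Cxcr4, with which it shares the ligand CXCL12, was 0.81 higher.

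Of 39 cytokine receptors 14 were higher and 18 lower, 11 and 8 of them by at least 2-fold. In all 82.1% passed the test, beside 60.8% of all genes. Il7r, the interleukin 7 receptor chain best known from lymphocytes, had 12.4, 11.2 and 9.83 CPM in the KO libraries against 0.166, 0.105 and 0 in the WT libraries; without WT replicate 1 its log2 fold change went from 6.87 to 7.50. The receptor chains for interleukins 4 and 13 were lower: Il13ra1 at 37.6, 39.6 and 40.5 CPM in the KO libraries against 165, 169 and 177 in the WT libraries and Il4ra at -1.76 on the log2 scale. The feedback inhibitors of cytokine signalling differed in sign, Socs2 at 76.7, 78.9 and 72.1 CPM in the KO libraries against 21.1, 23.2 and 22.9 in the WT libraries and Socs3 at 21.5, 20.8 and 23.4 CPM in the KO libraries against 97.3, 94.3 and 97.1 in the WT libraries. All 8 SOCS genes passed the test, 4 in each direction. Mrc2, an endocytic collagen receptor, was -2.77 on the log2 scale.

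Secreted growth factors and their binding proteins followed. Igfbp2, which binds insulin-like growth factors, stood at 472, 519.9 and 476 CPM in the KO libraries against 38.6, 42.6 and 44.7 in the WT libraries (log2 fold change 3.54 ± 0.07 SE, edgeR adjusted p = 2.16e-12). Pappa, a protease that frees these factors, was 1.60 higher and Igfbp6 was at -0.96. Of 8 tested genes of this group 5 were higher and 1 lower. The angiopoietins differed in sign: Angpt1, which stabilises vessels, was at 31.6, 21 and 30.1 CPM in the KO libraries against 207, 217 and 212 in the WT libraries, and Angpt4 was at 18, 16.9 and 20 CPM in the KO libraries against 4.73, 4.86 and 4.11 in the WT libraries. Placental growth factor Pgf and Vegfc were lower (-2.17 and -1.34). Fgf2 and Fgf10 were at -1.27 and -0.96, beside the rise of their receptor Fgfr2. Of 10 activins, GDFs and follistatins 7 were higher and 2 lower. The inhibin subunit Inhbb was at 66.4, 59.5 and 85.9 CPM in the KO libraries against 35.1, 34.3 and 32 in the WT libraries, and the activin antagonist Fstl3 was 1.08 higher.

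Of 27 semaphorins, plexins and neuropilins, which guide axons and vessels, 18 were lower and 7 higher, 10 and 5 of them by at least 2-fold. Sema7a stood at 4.08, 3.76 and 2.62 CPM in the KO libraries against 41.3, 42 and 40.4 in the WT libraries and the co-receptor Nrp1 at 29.7, 27.6 and 26.9 CPM in the KO libraries against 106, 107 and 106 in the WT libraries. Sema3c, a secreted class 3 semaphorin, was at 260.4, 223 and 314 CPM in the KO libraries against 98.9, 98.3 and 101 in the WT libraries. Without the genes of chromosome 5, which carries Sema3c and Sema3d, 4 members were higher in place of 7. The guidance receptor Robo1 and the ligand Ntn1 were at -2.17 and -1.75, and Robo2 was 1.05 higher. Among cytokines Tslp, an epithelial alarm cytokine, was at 1.77, 1.27 and 2.71 CPM in the KO libraries against 16.4, 15.4 and 14.8 in the WT libraries. The gut and brain peptide Cck was at 39.9, 41.7 and 30.3 CPM in the KO libraries against 6.93, 5.94 and 5.44 in the WT libraries. Gfra1, a receptor for the neurotrophic factor GDNF, was 2.63 higher.

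Among genes of the pericellular matrix, some lists had more members lower than higher. Of 41 hyaluronan and sulphated glycan enzymes 23 were lower and 6 higher. The hyaluronan synthase Has1 was at 7.01, 7.13 and 5.96 CPM in the KO libraries against 42.7, 44.3 and 44.8 in the WT libraries. Sulf2, which removes sulphate from heparan sulphate, was at 18.4, 19.1 and 19.2 CPM in the KO libraries against 3.65, 3.08 and 3.17 in the WT libraries. Of 10 tested ADAM proteases 8 were lower and 0 higher, and Adam11, at a log2 fold change of 0.93, did not pass. Adam19 and Adam8 were both at -2.24, and Adam10, the main sheddase, was at 110.3, 109 and 100.2 CPM in the KO libraries against 238, 233 and 228 in the WT libraries. Laminins and other basement membrane genes were nearly balanced, 6 higher and 7 lower of 16. Lama3 and Nid2 were 1.42 and 1.25 higher. Laminin chain Lama4, of the basement membrane around muscle and vessels, was at 0.11, 0.221 and 0.484 CPM in the KO libraries against 12, 14.8 and 12.9 in the WT libraries; without KO replicate 3 its log2 fold change went from -5.53 to -6.27. Lamc1 was at 219, 240.2 and 200.3 CPM in the KO libraries against 607, 622 and 602 in the WT libraries. Each of these genes had groups that did not overlap. The tested fibroblast markers were lower in KO, as were these genes except Adam11, Sulf2, Lama3 and Nid2, and their part was not tested.

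Surface proteins of the tetraspanin family were lower in 15 of 22 and higher in 2, with a median of -0.57. Library size alone gave 5 higher. Cd53 and Tspan11 were at -3.07 and -3.02, and Cd63, the most abundant one named, was slightly higher at 1123, 1054 and 1119 CPM in the KO libraries against 924, 946 and 943 in the WT libraries. Of 20 S100 proteins and annexins, which bind calcium, 14 were lower and 2 higher, or 1 without the genes of chromosome 5. S100a16 was -1.58 and Anxa8 -1.05, but Anxa3 was at 771, 713 and 883 CPM in the KO libraries against 260.1, 269.7 and 266 in the WT libraries. Cadherins were lower in 12 of 22 and higher in 5 (3 without WT replicate 2 or WT replicate 3), with Pcdh19 at 33.8, 38.4 and 29.6 CPM in the KO libraries against 147, 154 and 138 in the WT libraries and the giant cadherin Fat1 higher by 0.88 log2 units. The gap junction protein Gja1 and the tight junction scaffold Tjp1 were -0.60 and -0.93. Among 29 myosins 14 were higher and 9 lower, and 79.3% passed the test beside 60.8% of all genes. Myo18b, a muscle myosin, was 3.27 log2 units higher. The guanine exchange factor Dock11 was at 16.2, 14.7 and 16.1 CPM in the KO libraries against 124, 115 and 121 in the WT libraries.

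Channels and carriers gave large single changes. Aqp1, the water channel of vessels, stood at 74, 77.8 and 63.2 CPM in the KO libraries against 383, 404 and 401 in the WT libraries (log2 fold change -2.47 ± 0.07 SE, edgeR adjusted p = 3.00e-11). Slco1a5, a carrier of bile acids and other organic anions, stood at 47.2, 32.6 and 47.8 CPM in the KO libraries against 2.78, 2.69 and 2.43 in the WT libraries. The zinc carrier Slc30a4 was at 163, 183 and 171 CPM in the KO libraries against 685, 726 and 720.3 in the WT libraries, the zinc carrier Slc39a10 was 0.97 higher, and the metal-binding Mt1 was -1.73. Channel subunits went both ways. Of 23 potassium channel genes 9 were higher and 7 lower, with Kcnmb2, a subunit of calcium-activated channels, at 4.25 and the pore subunit Kcnc2 at -3.33. The share of these 23 that passed the test was 69.6%, beside 60.8% of all genes. Of 14 voltage-gated sodium and calcium channel genes 6 were higher and 5 lower, with the pore subunit Cacna1a at 3.14 and the accessory subunits Cacnb2 and Cacng1 at -1.98 and -0.92. Among enzymes Cyp11a1, which starts steroid synthesis from cholesterol, was at 22.4, 19.2 and 24.5 CPM in the KO libraries against 0.706, 1.19 and 0.94 in the WT libraries. The glutathione transferases Gsta1, Gsta2 and Gsta3 were 1.53, 1.89 and 2.85 higher, with the reservation that these closely related genes can share reads.

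**Figure D4:**
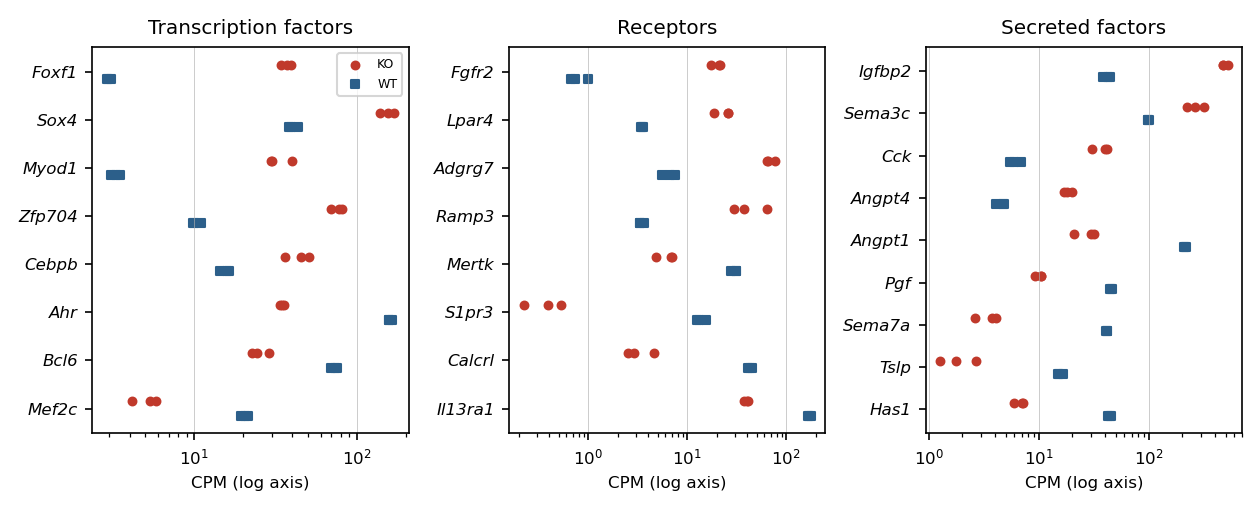
CPM in each day-1 library (horizontal axis, logarithmic) of transcription factors, receptors and genes of the secreted factor and matrix lists, with circles for the 3 KO and squares for the 3 WT libraries. The groups do not overlap for any gene shown, and within each panel the upper genes are higher and the lower genes lower in KO.

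The TRIM family, ubiquitin ligases many of which act in antiviral defence, was higher in 24 of 45 tested members and lower in 9, with 13 and 1 past 2-fold. Trim30a, a regulator of Toll-like receptor signalling, stood at 48.6, 43.4 and 48.7 CPM in the KO libraries against 0.623, 0.804 and 0.626 in the WT libraries (log2 fold change 6.08 ± 0.14 SE, edgeR adjusted p = 2.81e-12). Its chromosome 7 neighbour Trim12c was at 42, 39.2 and 36.2 CPM in the KO libraries against 4.48, 4.51 and 5.32 in the WT libraries. Trim55, a muscle ligase of the sarcomere, was 3.41 higher and lies outside the antiviral group. Trim30a, Trim30c and Trim30d, and likewise Trim34a and Trim34b, are closely related copies, so reads could be split among them. The same holds for the serpin cluster: Serpinb9d was at 23.1, 20.6 and 22.2 CPM in the KO libraries against 0.623, 1.12 and 1.06 in the WT libraries, and Serpinb9c and Serpinb9g were 3.01 and 2.87 higher. Of 23 serpins in all, 9 were higher and 10 lower.

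The 100 bases before the start of Trim30a and Trim12c are printed because these members differed together and both stretches hold the core letters of the interferon-stimulated response element, GAAA, any 2 bases and GAAA again (TTTC, any 2 bases and TTTC on the other strand). The next 2 sequences hold AAAGGTCA (TGACCTTT on the other strand), the NBRE of the NR4A receptors, in 1 gene that was higher in KO, the chaperonin Hspe1, and 1 that was lower, Tcf7, a factor of Wnt signalling at 11, 9.78 and 9.88 CPM in the KO libraries against 28.4, 28.3 and 30.1 in the WT libraries. Capitals mark the match, which begins 36, 29, 49 and 13 bases before the start. The sequences are from RefSeq, build GRCm38.p6, read 5′ to 3′ on the strand of the gene, and each holds 1 match of either motif.
Trim30a (chr7:104465194-104465293, minus strand): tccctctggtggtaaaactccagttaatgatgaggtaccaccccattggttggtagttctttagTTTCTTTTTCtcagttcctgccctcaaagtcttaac
Trim12c (chr7:104353350-104353449, minus strand): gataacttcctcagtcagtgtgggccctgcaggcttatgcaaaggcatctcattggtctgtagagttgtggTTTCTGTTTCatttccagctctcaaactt
Hspe1 (chr1:55088048-55088147, plus strand): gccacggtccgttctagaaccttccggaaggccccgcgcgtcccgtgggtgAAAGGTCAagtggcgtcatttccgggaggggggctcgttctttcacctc
Tcf7 (chr11:52282596-52282695, minus strand): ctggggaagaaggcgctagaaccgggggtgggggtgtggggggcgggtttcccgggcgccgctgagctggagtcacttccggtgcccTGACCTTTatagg
Searched on both strands of windows of 300 bases (250 before to 50 after the start), the NBRE letters occurred in 460 of 27025 genes (1.70%) and the interferon core in 1079 (3.99%). Of the 32 tested TRIM genes with a window, 7 held the interferon core. The TRIM list was picked after its values were seen and holds closely related copies, so this count was not compared with the share of all genes. A match is a description of letters and not a bound site. Only 68.2% of the tested genes had a window, under the 80 percent needed, so a comparison of motif shares between higher and lower genes was void.

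Some genes were read in 1 genotype only, with 0 counts in all 3 libraries of the other and at least 10 in each of its own. There were 28 such genes in KO and 17 in WT, of which 23 and 10 are protein coding. Each value is given against a floor of 3 counts over the other group. Gdf10, a bone morphogenetic protein relative, had 285, 301 and 215 counts in KO, at least 372-fold higher. Luzp2, a leucine zipper protein, had 248, 214 and 266 counts, at least 334-fold higher. Prom1 (CD133), a membrane marker of stem and epithelial cells, had 176, 199 and 169 counts, at least 251-fold higher. The adrenal steroid enzyme Cyp11b1, the phosphatase Ptprb and the adhesion protein Negr1 followed with at least 120-fold, 82.8-fold and 47.1-fold.

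The genes read only in WT were lower in level. The asparaginase Aspg had 23, 35 and 33 counts, at least 21.9-fold lower in KO, and the homeobox factor Isl1 had 21, 21 and 28, at least 17.1-fold. Arhgef15, an exchange factor of vessels, had 20, 14 and 16 counts, and Spry1, an inhibitor of FGF signalling chosen after its values were seen, 12, 15 and 18. The pair of X-linked homeobox genes Rhox7a and Rhox10, from a cluster of closely related genes and chosen after their values were seen, was read only in KO at 12 to 42 and 11 to 21 counts. Because WT was read more deeply, a gene of equal level is more likely to reach 10 counts there: with all libraries thinned to the lowest total, 8 genes were left that were read only in WT. Without KO replicate 1 or KO replicate 3, 35 or 41 genes were read only in WT.

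Genes of chromosome 5 were on balance higher in KO. By name, 14004 tested genes (91.1%) were placed on a chromosome, and the median difference from the WT mean was taken for each library. For the 899 genes of chromosome 5 it was 0.32, 0.29 and 0.29 log2 units in the KO libraries and at most 0.01 in the WT libraries, and 68.9% of these genes lay above WT. All 9 successive runs of about 100 genes along the chromosome had a median above 0, from 0.19 to 0.42. Chromosomes 14 and 16 had KO-minus-WT medians of -0.21 and -0.18, and the others lay between -0.13 and 0.09. At day 14 the same medians were -0.22 for chromosome 5, 0.33 for chromosome 14 and 0.32 for chromosome 16. Chromosomes 18 and 10 had medians as large at day 14, 0.34 and -0.24, beside -0.1 and 0.08 at day 1. This grouping was chosen after values were seen, and neighbouring genes are not independent. Without the genes of chromosome 5, 8733 genes passed the test and 2801 were changed by at least 2-fold.

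**Figure D5:**
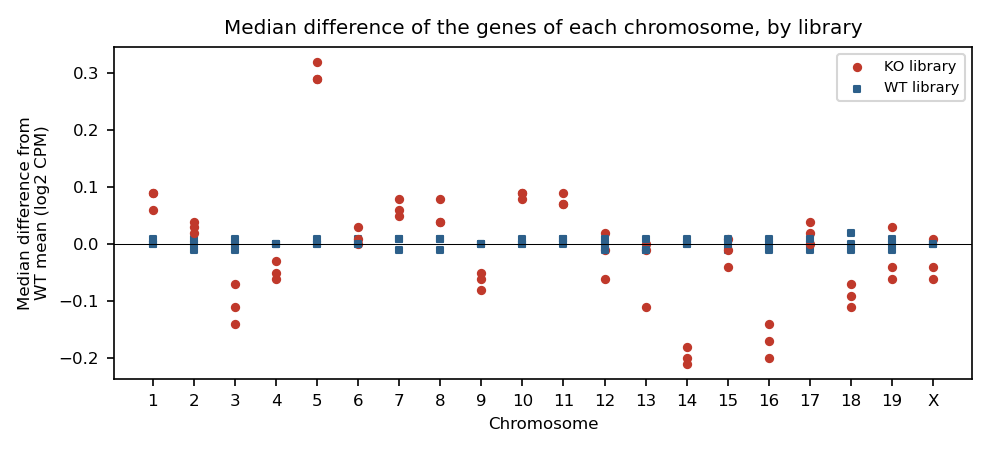
Median over the tested genes of each chromosome of the difference from the WT mean (vertical axis, log2 CPM), one point per library at day 1, with circles for KO and squares for WT. The KO points of chromosome 5 lie at 0.29 to 0.32 and those of chromosome 14 at -0.21 to -0.18, while the WT points stay between -0.01 and 0.02 on every chromosome.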

How the data were processed

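Gene expression was measured by RNA sequencing in 12 libraries, of which the 6 of day 1 were used for the tests and the 6 of day 14 for the likeness between libraries and the medians by chromosome. The authors deposited raw read counts per gene, one table for each day. The genome build was mm9, per the submitters' processing notes. Aligner, counting tool, annotation and strand setting: not given in the sources used here. Overlapping, antisense or near-identical genes may therefore share reads. Totals were 17143281 to 20091307 counts in KO and 24929624 to 30105118 in WT. Of 28494 lines at day 1, 43 repeated another line in name and counts and were removed, and 26 names had been turned into dates. Lines of the 2 names that occurred with different counts were kept apart.

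Counts were scaled by TMM, filtered with filterByExpr and tested with edgeR 4.0.16 (quasi-likelihood test, Benjamini-Hochberg adjustment over all 15368 tested genes, threshold 0.05) in R 4.3.3. The test was checked on simulated data in which 200 genes were changed. Far more genes passed in the real data, so that check does not cover a comparison where most genes differ. The members and the 107 gene lists were chosen with earlier results of these data known. Genes named were, in each list, up to 3 rising and 3 falling genes of largest log2 fold change among those that passed the test without overlap of the groups and averaged 2 or more on the log2 CPM scale, the 15 largest changes in CPM in each direction, the 10 genes of highest level read in 1 genotype, Nr4a3 and the smooth muscle markers. Predicted genes were passed over, a few genes chosen this way are left out of the text, and other marker genes named were chosen after their values were seen. Promoter sequences and chromosomes came from RefSeq (GRCm38.p6), matched by gene symbol, and coordinates of the deposited build were not used. The alternatives were other scaling, DESeq2 1.42.0, limma-voom (limma 3.58.1), other filters, thinned counts, a replicate block and each library left out.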

Additional observations from a re-analysis of the deposited data

How the results depend on the processing

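Between 8163 (without WT replicate 2) and 9991 genes (without KO replicate 2) passed the test over all alternatives, against 9341, and 8163 to 9991 is also the range over the fits that leave out 1 library. DESeq2 called 9059 genes, limma-voom 9448, no filter 9885, a minimum of 1 CPM in 3 libraries 8834 and thinned counts 8955. With library size alone 61.7% of the calls were higher in KO (5917 higher, 3676 lower) in place of 50.4%, and 20 of 212 list counts moved by over 1.5 times, more than under any other alternative run. Leaving out the genes of chromosome 5 was chosen after seeing the data and gave 8733. Genes read in 1 genotype only numbered 108 (64 in KO, 44 in WT) with a minimum of 5 counts and 21 (14 and 7) with 20 counts, and 8 were read only in WT after thinning. Leaving out each library gave 51 to 76 such genes, 31 to 39 in KO only and 20 to 41 in WT only. No named gene changed direction under any alternative run. Replicate numbers did not pair the libraries, with correlations of deviations of -0.0079, -0.0112 and -0.0031 between same-numbered libraries. A replicate block gave 9090 calls, 4533 higher and 4557 lower, and 2949 of at least 2-fold, 1494 higher and 1455 lower. Not every library correlated best with its own number. Depth limits the genes of lowest level, where a 2-fold difference could miss the threshold.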
